A study of Mus musculus with 4 samples.

Results

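The genes described here are 9 that B cells and antibody-secreting cells use to build and carry antibodies: Cd79a, Cd79b, Ms4a1, Cd22, Ighm, Ighd, Igkc, Iglc1 and Jchain. They were taken by symbol from a table of 56748 genes, and each symbol had 1 row. The RNA came from lungs carrying 4T1 metastases, 4T1 being a mouse line of triple-negative breast cancer. BALB/cJ female mice were injected through the tail vein with 4T1-FLuc cells, which carry firefly luciferase, at 7 weeks of age, and all 4 sequenced libraries (T25, T26, T29 and T30) came from this model. T25 and T26 came from control mice given saline, which the sample labels call PBS. T29 and T30 came from mice given cmLumiOpto/PARPi. In cmLumiOpto a Nanoluciferase lights a cation channel rhodopsin, CoChR, in the inner mitochondrial membrane. It was delivered by AAV inside exosomes coated with a CD276 antibody (mAb-Exo-AAV), with the luciferin ViviRen at 2 mg/kg, and was combined with the PARP inhibitor olaparib at 50 mg/kg. No library had either agent alone, so their parts cannot be told apart. The study's methods describe dissociated lung tissue with metastasis, and the labels describe harvested tumour cells. Each library is treated as 1 mouse, and p-values measure the spread between these libraries.

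A B cell carries a membrane antibody, made of heavy and light chains, held in a complex with the CD79A and CD79B signaling proteins. A naive B cell makes IgM and IgD heavy chains (Ighm and Ighd) with a kappa (Igkc) or lambda (Iglc1 and its neighbours) light chain. Once it has matured into a plasma cell it makes very large amounts of antibody mRNA, so that antibody transcripts can be abundant where B cells are few. In the lung, B cells gather in lymphoid follicles near the airways, and plasma cells supply IgA to the airway surface. In a bulk library, fewer cells of a type and less RNA per cell cannot be told apart.

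Several antibody genes are near copies, and the letters show which can be told from each other by short reads. The last 90 coding bases of 3 lambda constant genes are given because Iglc1 is read beside its neighbours, with capitals at the 29 positions where the 3 genes are not identical. They lie at chr16:19061755-19061844, chr16:19198539-19198628 and chr16:19065368-19065457 on the minus strand of GRCm38 (GENCODE M21).
Iglc1: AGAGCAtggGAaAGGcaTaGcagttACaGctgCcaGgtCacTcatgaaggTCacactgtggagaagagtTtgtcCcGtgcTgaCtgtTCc
Iglc2: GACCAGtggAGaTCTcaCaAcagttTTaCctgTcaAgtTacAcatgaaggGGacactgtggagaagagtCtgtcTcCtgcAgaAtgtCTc
Iglc3: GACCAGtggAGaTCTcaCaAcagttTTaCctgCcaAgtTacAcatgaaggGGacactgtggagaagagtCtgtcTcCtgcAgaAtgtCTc
Iglc1 differed from Iglc2 at 29 of these positions, whereas Iglc2 and Iglc3 differed at 1. Over the coding sequence Iglc1 was 73.4% identical to Iglc2, and Iglc2 was 96.2% identical to Iglc3. No window of 50 bases in the transcripts of Iglc1, Igkc, Ighm or Ighd occurred in the transcript of another constant gene, whereas 10.7% of the windows of Iglc3 did. The counts of Iglc2 and Iglc3 are thus uncertain, as reads could be split between them.

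Antibody light chains also differ in the variable segment joined to the constant gene. The ends of 3 kappa variable segments are given because each was the segment with the most counts in at least 1 library. They are Igkv3-1 at chr6:70704088-70704177 (plus strand), Igkv10-96 at chr6:68631963-68632052 (minus strand) and Igkv4-74 at chr6:69184826-69184915 (minus strand), all GRCm38. Capitals run from the codon of the conserved cysteine to the end of the segment, the stretch that enters the antigen-binding loop CDR3.
Igkv3-1: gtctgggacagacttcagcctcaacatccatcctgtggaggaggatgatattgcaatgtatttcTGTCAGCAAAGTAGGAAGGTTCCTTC
Igkv10-96: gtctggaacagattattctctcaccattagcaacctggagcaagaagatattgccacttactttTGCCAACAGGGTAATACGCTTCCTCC
Igkv4-74: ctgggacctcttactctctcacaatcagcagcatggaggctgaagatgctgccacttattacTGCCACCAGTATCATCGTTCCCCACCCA

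The gene counts summed to between 15263375 and 16755228 per library. They are given as CPM, counts scaled to a common library size with TMM factors, and 3 counts corresponded to 0.173 to 0.204 CPM. The spread within a group exceeded sampling noise, with chi-square values per degree of freedom of 26.1 for saline and 44.9 for cmLumiOpto/PARPi. Saline replicate 2 stood apart for these genes: it had the lowest CPM of the 4 libraries for 9 of the 9, against 29.9% of all 15167 genes tested. It was also low for lung epithelium. Genes of alveolar type 2 cells summed to 1628 CPM in saline replicate 1 and 421.5 CPM in saline replicate 2, and to 7954 and 2815 CPM in the cmLumiOpto/PARPi libraries. Most of the treated sums came from Sftpc, at 6153 and 2092 CPM. Of the 6 genes, 5 were higher in both treated libraries, and Abca3 was lower in both (147 and 129 CPM against 125 and 94.0 CPM). Airway epithelial genes summed to 1177 and 88.6 CPM in the saline libraries and to 5792 and 3024 CPM after cmLumiOpto/PARPi, of which Scgb1a1 alone had 5305 and 2794 CPM. The genes listed for 4T1 tumour epithelium summed to between 2647 and 3806 CPM over the 4 libraries. Lung epithelium makes genes of this list too, so the sum does not measure tumour alone. No alveolar, airway or tumour epithelial gene on these lists was at 0 in a library. The part of the differing lung share in the values below was not tested.

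Of the 9 genes, 9 had enough counts to be tested and 0 passed an adjusted p of 0.05 (quasi-likelihood test of edgeR, adjusted by Benjamini-Hochberg), where 0% of all genes (0 of 15167) passed. DESeq2 gave an adjusted p for 6 of the 9 genes and called 0 of them. It called 6.67% of all genes, or 7.71% of those with an adjusted p, and gave none for Ms4a1, Ighd and Iglc1. At an unadjusted p under 0.05, 2 genes were higher after cmLumiOpto/PARPi (Cd79b and Ms4a1) and 0 were lower, against 9.21% of all genes higher. In these same 2 genes both treated libraries exceeded both saline libraries, which held for 27.4% of all genes. In 0 genes did both treated libraries lie below both saline libraries, against 27.8% of all genes. The 2 of 9 with both treated libraries higher is thus near the 27.4% of all genes. In either direction, 2 of the 9 did not overlap, against 55.2% of all genes. The fitted log2 fold change was above 0 in 8 genes and below 0 in 1, with a median of 0.57 against 0.02 over all genes tested. Against saline replicate 1 alone, both treated libraries were higher in 2 of the 9, or 22.2%, where all genes gave 37.0%. They were both lower in 2, also 22.2%, where all genes gave 36.9%. Ms4a1 passed the filter on low counts only through the cmLumiOpto/PARPi libraries. With 2 libraries against 2, an exact two-sided permutation test of a gene cannot reach 0.05.

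**Figure D1:**
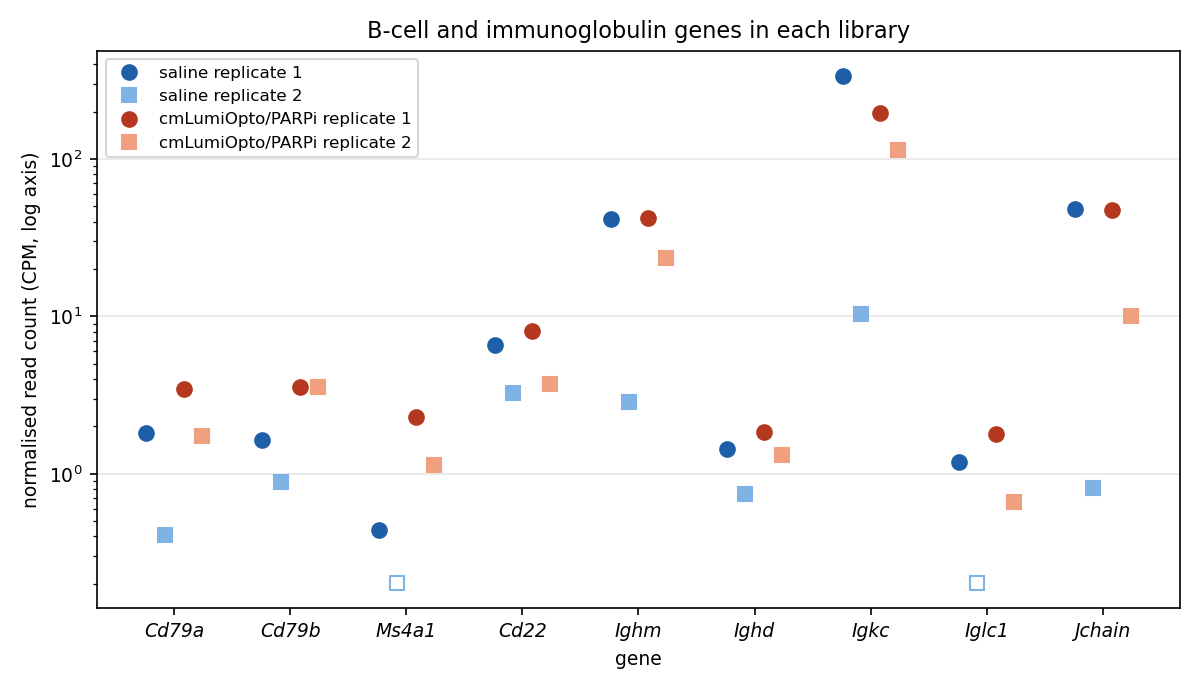
Normalised read count (CPM, log axis) of each of the 9 genes, with a point for each library; open squares at the bottom stand for a count of 0, drawn at the level of 3 counts. Saline replicate 2 is the lowest library for every gene, and Igkc, at 10.4 to 337 CPM, is the gene with the highest CPM.

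The signaling pair of the B-cell receptor was at a low level in each library. Cd79a (chr7:24596806-24601622 in the deposited table, plus strand) encodes the alpha chain of the pair. It had 1.82 and 0.409 CPM in saline replicates 1 and 2 and 3.45 and 1.75 CPM in cmLumiOpto/PARPi replicates 1 and 2. The groups overlapped, since the lower treated library fell just under saline replicate 1, and the log2 fold change was 1.21 (standard error 0.77, adjusted p = 0.401 in the quasi-likelihood test). Without saline replicate 2 it was 0.50.

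Cd79b (chr11:106202167-106205588, minus strand) encodes the beta chain. It had 1.63 and 0.886 CPM in the saline libraries and 3.57 and 3.55 CPM after cmLumiOpto/PARPi. The treated libraries were nearly equal and both lay above the saline libraries. The log2 fold change was 1.49 (standard error 0.47, unadjusted p = 0.0208, adjusted p = 0.178). It was 1.11 without saline replicate 2 and at most 1.98, without saline replicate 1. As the groups did not overlap, leaving out 1 library was bound to keep the direction, so this adds no support. These values came from 13 to 62 counts per library.

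The 250 bases before the start of Cd79a are given as the promoter of the receptor gene with a RefSeq entry (GRCm38.p6), with capitals at an E-box (CAGGTG), 154 bases before the start, and an Ets motif (GGAAGT), 54 bases before it. They lie at chr7:24897247-24897496 on the plus strand.
Cd79a: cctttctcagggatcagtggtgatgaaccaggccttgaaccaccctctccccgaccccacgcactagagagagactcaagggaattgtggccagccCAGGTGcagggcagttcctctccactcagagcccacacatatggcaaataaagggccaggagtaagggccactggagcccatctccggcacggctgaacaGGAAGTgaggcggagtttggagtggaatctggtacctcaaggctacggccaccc
Both strands were searched for these motifs, for the octamer ATGCAAAT and for the EBF motif CCCNNGGG. In the 250 bases before the start, the E-box was found in 17.1% of all 27025 promoters and the Ets motif in 20%. The EBF motif was found in 11.7% and the octamer in 1.61%. A match is a description of the letters only.

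The surface proteins CD20 and CD22 were read at low counts too. Ms4a1 (chr19:11227039-11243605, minus strand) encodes CD20, a membrane protein of mature B cells that plasma cells lose. It had 0.439 CPM (7 counts) in saline replicate 1, none in saline replicate 2 (0 counts), and 2.30 CPM (40 counts) and 1.14 CPM (19 counts) after cmLumiOpto/PARPi. Both treated libraries exceeded both saline libraries. The fitted log2 fold change was 2.90 (standard error 1.09, unadjusted p = 0.0387, adjusted p = 0.215). It was 1.94 without saline replicate 2, and 2.89 with an adjusted p of 0.00809 from the same test when no filter on low counts was used. That unfiltered fit called 2000 of 25435 genes (7.86%), whereas the filtered fit called 0 of 15167, so the call depended on the filter. The fit without saline replicate 1 gave a log2 fold change of 7.81, a value against a library at 0 that depends on the prior count.

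Cd22 (chr7:30564827-30579767, minus strand) encodes a sialic acid-binding inhibitory co-receptor of B cells. It had 6.59 and 3.27 CPM in the saline libraries and 8.06 and 3.73 CPM after cmLumiOpto/PARPi. Each replicate 1 was above each replicate 2, and the groups overlapped. The log2 fold change was 0.26 (standard error 0.53, adjusted p = 0.806), and it was -0.18 without saline replicate 2 and -0.41 without cmLumiOpto/PARPi replicate 1.

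**Figure D2:**
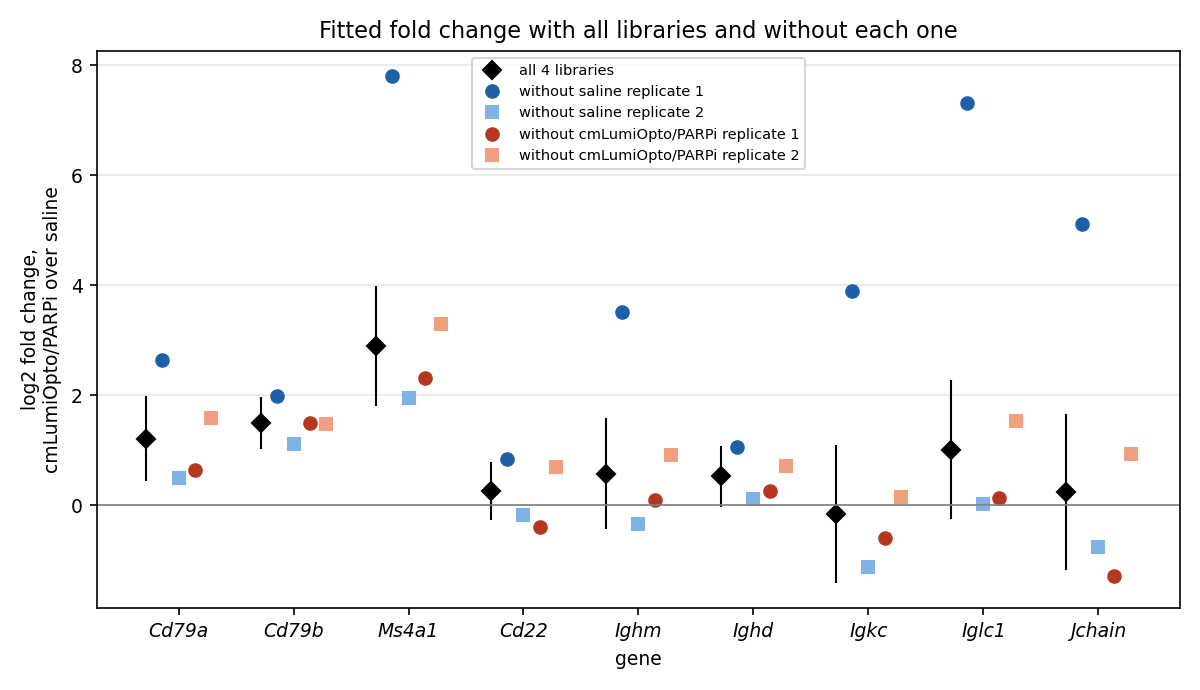
Fitted log2 fold change of cmLumiOpto/PARPi over saline for each gene, with all 4 libraries (diamonds, bars are the standard error) and without each library in turn (coloured points). The value of Igkc runs from -1.13 to 3.89 and that of Cd79b from 1.11 to 1.98; points without saline replicate 1 for Ms4a1 and Iglc1 are against a library at 0.

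Heavy chains were read mainly as IgM rather than IgD. Ighm (chr12:113382178-113386350, minus strand) encodes the mu constant region, made by naive B cells and by IgM plasma cells. It had 41.4 and 2.86 CPM in the saline libraries and 42.4 and 23.6 CPM after cmLumiOpto/PARPi. Saline replicate 1 and treated replicate 1 were nearly equal, and saline replicate 2 was far below the rest. The log2 fold change was 0.57 (standard error 1.01, adjusted p = 0.771). It was -0.34 without saline replicate 2 and 3.51 without saline replicate 1 (adjusted p = 0.0461 in that fit), so the saline library kept decided it.

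Ighd (chr12:113370224-113379944, minus strand) encodes the delta constant region, which mature naive B cells splice to the same variable region as mu. It had 1.44 and 0.750 CPM in the saline libraries and 1.84 and 1.32 CPM after cmLumiOpto/PARPi. The groups overlapped, and the log2 fold change was 0.52 (standard error 0.55, adjusted p = 0.617). The ratio of Ighm to Ighd counts was 28.7 in saline replicate 1, 3.82 in saline replicate 2 and 23.0 and 17.8 after cmLumiOpto/PARPi, so saline replicate 2 was lower in Ighm than in Ighd relative to the others.

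Light chains were nearly all kappa. Igkc (chr6:70703419-70703950, plus strand) encodes the kappa constant region, and was the most abundant of the 9 genes per length too, at 59.2 to 1928 TPM (counts scaled for gene length and library size). It had 337 and 10.4 CPM in the saline libraries and 196 and 115 CPM after cmLumiOpto/PARPi. The saline libraries thus held both the highest and the lowest value, and the treated libraries lay between them. The log2 fold change was -0.16 (standard error 1.25, adjusted p = 0.957). Without saline replicate 1 it was 3.89 (adjusted p = 0.0245) and without saline replicate 2 it was -1.13, and its direction thus followed the saline library that was kept.

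Iglc1 (chr16:18880368-18880821, minus strand) encodes a lambda constant region. It had 1.19 CPM (19 counts) in saline replicate 1, 0 counts in saline replicate 2, and 1.79 CPM (31 counts) and 0.662 CPM (11 counts) after cmLumiOpto/PARPi. The groups overlapped, and the log2 fold change was 1.01 (standard error 1.27, adjusted p = 0.677), which was 0.02 without saline replicate 2. The kappa share of light-chain constant counts was 99.5% (exact Clopper-Pearson 95% interval 99.3 to 99.7) of 5398 counts and 98.7% (95.4 to 99.8) of 154 counts in the saline libraries. After cmLumiOpto/PARPi it was 97.7% (97.2 to 98.2) of 3490 counts and 98.4% (97.7 to 98.9) of 1935 counts. These intervals cover counting error only, and that of saline replicate 2 overlaps those of the other 3 libraries.

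Jchain (chr5:88667668-88675750, minus strand) encodes the joining chain that links IgM and IgA into polymers, and is made in large amounts by plasma cells. It had 48.2 and 0.818 CPM in the saline libraries and 47.6 and 10.1 CPM after cmLumiOpto/PARPi. The saline libraries differed more than in any other of the 9 genes with counts in both. The log2 fold change was 0.23 (standard error 1.42, adjusted p = 0.943), and it was -0.76 without saline replicate 2 and -1.29 without cmLumiOpto/PARPi replicate 1.

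Antibody-chain and receptor genes differed in their ratio between libraries. For each count of Cd79a and Cd79b together there were 97.7 counts of Igkc in saline replicate 1, 8 in saline replicate 2, and 28 and 21.6 after cmLumiOpto/PARPi. The same ratio for Jchain was 14 and 0.632 in the saline libraries and 6.78 and 1.91 after cmLumiOpto/PARPi. The treated libraries lay between the saline libraries in both ratios. The receptor counts behind them were 55, 19, 122 and 88. All immunoglobulin genes together took 0.0661% and 0.0025% of the counts in the saline libraries and 0.0570% and 0.0261% after cmLumiOpto/PARPi.

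The members were also read against Ptprc (CD45), a gene of all leukocytes, which had 70.1 and 48.4 CPM in the saline libraries and 116 and 64.1 CPM after cmLumiOpto/PARPi. Relative to Ptprc, 3 genes were higher in both treated libraries, namely Cd79a, Cd79b and Ms4a1, with mean log2 ratios higher by 0.78, 0.90 and 2.17. The other 6 overlapped. Relative to Coro1a, another leukocyte gene, Cd79b and Ms4a1 were again higher in both treated libraries, Cd79a overlapped, and Cd22 and Ighd were lower in both. Over all genes tested, both treated libraries were above both saline libraries in 5.36% relative to Ptprc and in 2.84% relative to Coro1a, and below in 33.6% and 62.4%. The ratio of Ms4a1 in saline replicate 2 rests on 0 counts and the prior count. Ms4a1 also passed the filter on low counts only through the treated libraries, so the counts of genes on these scales are a description.

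The heavy chains switch from IgM to IgG, IgA or IgE when a B cell matures, and the isotypes differed from library to library. Ighm was 27.6% (25.8 to 29.5) of 2390 heavy-chain constant counts in saline replicate 1 and 33.6% (25.4 to 42.6) of 125 counts in saline replicate 2. It was 16.9% (15.8 to 18.1) of 4347 counts and 29.3% (26.9 to 31.8) of 1338 counts after cmLumiOpto/PARPi. The IgG genes together took 52.2% and 19.2% in the saline libraries and 62.0% and 57.8% after cmLumiOpto/PARPi. The leading gene was Ighg2c in saline replicate 1 (47.8%), Igha in saline replicate 2 (38.4%), Ighg3 in treated replicate 1 (28%) and Ighg1 in treated replicate 2 (32.7%). The leading gene thus differed in each library, while the IgG genes together led in 3 of the 4.

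**Figure D3:**
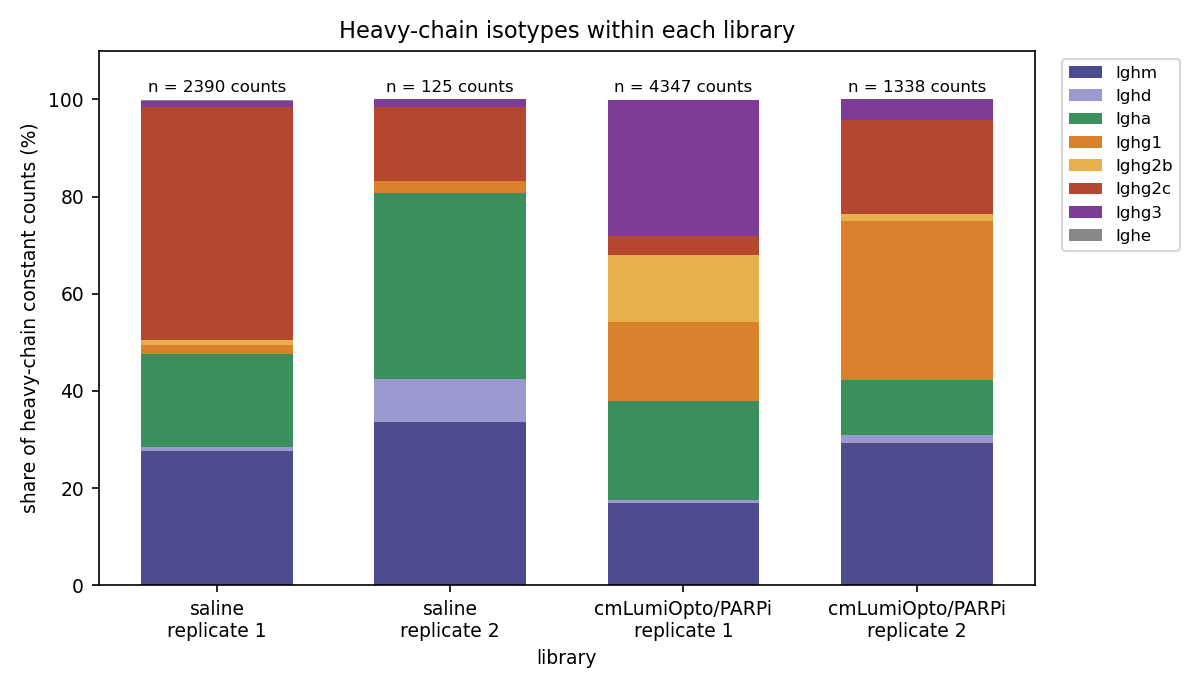
Share of the counts of all heavy-chain constant genes (percent) taken by each gene, as a stacked bar per library, with the number of counts above each bar. Ighg2c takes 47.8% in saline replicate 1, whereas Ighg1 takes 16.3% and 32.7% in the cmLumiOpto/PARPi libraries against 1.88% and 2.40% in the saline libraries.

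Of the other constant genes, 9 were in the table and 6 were tested, of which 0 passed the adjusted threshold. Saline replicate 2 was the lowest library for all 6. At an unadjusted p under 0.05, 4 of the 6 were higher after cmLumiOpto/PARPi (Ighg1, Ighg2b, Ighg3 and Iglc2), against 9.21% of all genes. Iglc2 passed the filter on low counts only through the treated libraries, so this count is a description. Ighg1, which encodes the IgG1 heavy chain, had 2.82 and 0.204 CPM in the saline libraries and 40.8 and 26.4 CPM after cmLumiOpto/PARPi, and both treated libraries were above both saline libraries. Its log2 fold change was 4.44 (standard error 0.85, unadjusted p = 0.00224, adjusted p = 0.138). Ighg3 had 2.13 and 0.136 CPM against 70.1 and 3.49 CPM (log2 fold change 4.98, adjusted p = 0.179), so that treated replicate 1 held most of it. Ighg2b had 1.63 CPM in saline replicate 1, 0 counts in saline replicate 2 and 34.4 and 1.14 CPM after cmLumiOpto/PARPi, and overlapped (4.40, adjusted p = 0.235). Ighg2c, at 71.7 and 1.30 CPM against 9.96 and 15.5 CPM, overlapped too (-1.52, adjusted p = 0.549), as did Igha, the IgA heavy chain, at 28.5 and 3.27 CPM against 50.8 and 9.09 CPM (0.91, adjusted p = 0.661).

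Among the lambda genes, Iglc2 had 0.376 and 0.136 CPM in the saline libraries and 1.61 and 0.963 CPM after cmLumiOpto/PARPi (log2 fold change 2.28, adjusted p = 0.178). Iglc3 had 0 counts in both saline libraries and 20 and 4 counts after cmLumiOpto/PARPi and was not tested. Iglc4 had 0 counts throughout, and Ighe had 4 counts in saline replicate 1 and 0 elsewhere. Ighg2b and Ighg2c are 87.6% identical over their coding sequence, and 5.49% of the 50-base windows of Ighg2c occur in another constant gene. BALB/c mice carry Ighg2a in the place of Ighg2c, and the table has no row for Ighg2a. How reads of that gene were counted was not tested.

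The variable segments behind the antibody counts differed from library to library. They held 2832 counts in saline replicate 1, 100 in saline replicate 2 and 1662 and 1027 counts after cmLumiOpto/PARPi, over 57, 27, 82 and 54 of the 218 segments in the table. Thinned to 100 counts, the expected number of segments was 16.8 and 27.0 in the saline libraries and 31.9 and 19.0 after cmLumiOpto/PARPi, so the groups overlapped. Igkv3-1, whose end is printed above, had 106 counts in saline replicate 1, 0 in saline replicate 2 and 300 and 614 counts after cmLumiOpto/PARPi. It took 4.80% of the kappa segment counts in saline replicate 1, 22.5% in treated replicate 1 and 75.6% in treated replicate 2. Igkv10-96 was the leading segment of saline replicate 1, with 33.4% (31.7 to 35.2) of all variable counts, and Igkv4-74 that of saline replicate 2, with 15% (8.65 to 23.5). The leading heavy segment, Ighv9-4, had 259, 3, 26 and 0 counts in saline replicates 1 and 2 and treated replicates 1 and 2. The leading lambda segment, Iglv1, had 81, 2, 163 and 19. Of the 106 segments with a count in any library, 8 had a count in all 4. The reference names come from another mouse strain, and the assignment of BALB/c segments to them was not tested.

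Other genes of B cells were read from lists. Of 19 surface and receptor signaling genes 13 were tested, 12 had a log2 fold change above 0 and 0 passed the adjusted threshold. In 7 both treated libraries were above both saline libraries and in 1 below, against 27.4% and 27.8% of all genes. Against saline replicate 1 alone both treated libraries were above it in 7 of the 13, or 53.8%, where all genes gave 37.0%. The smallest p-values belonged to Btk, a kinase of the receptor (log2 fold change 1.06, adjusted p = 0.158), Fcmr, an IgM Fc receptor (2.38, adjusted p = 0.195, with 4 and 1 counts in the saline libraries), and Blnk, an adaptor of the receptor (1.49, adjusted p = 0.203), all in the quasi-likelihood test. Fcmr passed the filter on low counts only through the treated libraries. Cd38 was the gene below 0 (-0.38, adjusted p = 0.249). Btk, Syk, Lyn and Cd38 are made by other leukocytes too. Cr2, a complement receptor of B cells, had 0 counts in both saline libraries and 9 and 2 after cmLumiOpto/PARPi.

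The list of B-cell transcription factors also held Cd83, which encodes a surface protein (log2 fold change 0.84). In 8 of the 10 genes tested from this list the log2 fold change was above 0, with a median of 0.42. An unadjusted p under 0.05 was reached by 0 of them. Both treated libraries were above both saline libraries in 3 of them, Ebf1 (log2 fold change 0.98, adjusted p = 0.255), Pou2f2 (1.23, adjusted p = 0.294) and Bcl6 (0.28, adjusted p = 0.353), and below in 2, Bcl11a (-0.52, adjusted p = 0.304) and Bach2 (-0.30, adjusted p = 0.632). All genes tested gave 27.4% above and 27.8% below, so both counts are near the background. Pax5, which fixes B-cell identity, had 0.439 and 0.818 CPM in the saline libraries and 0.806 and 0.541 CPM after cmLumiOpto/PARPi.

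Plasma cell genes were split in direction. Of 8 tested, 3 had a log2 fold change above 0 and 5 below, with a median of -0.03. The smallest p-value was that of Creld2, a protein of the endoplasmic reticulum (log2 fold change 0.66, adjusted p = 0.145), at 31.7 and 38.4 CPM in the saline libraries against 58.7 and 51.8 CPM. Sdc1 (CD138), at 240 to 403 CPM, and Xbp1, at 178 to 244 CPM, are made by epithelial cells as well. The more restricted Mzb1 had at most 0.979 CPM, and Tnfrsf17, the BCMA receptor, had 3 counts in treated replicate 1 and 0 elsewhere. Of 8 genes of B-cell precursors and recombination 1 was tested, Vpreb3 (log2 fold change 2.43, adjusted p = 0.257), at 0.815 and 0.0681 CPM against 3.80 and 1.08 CPM. Vpreb2, Igll1 and Rag2 had 0 counts in all 4 libraries.

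**Figure D4:**
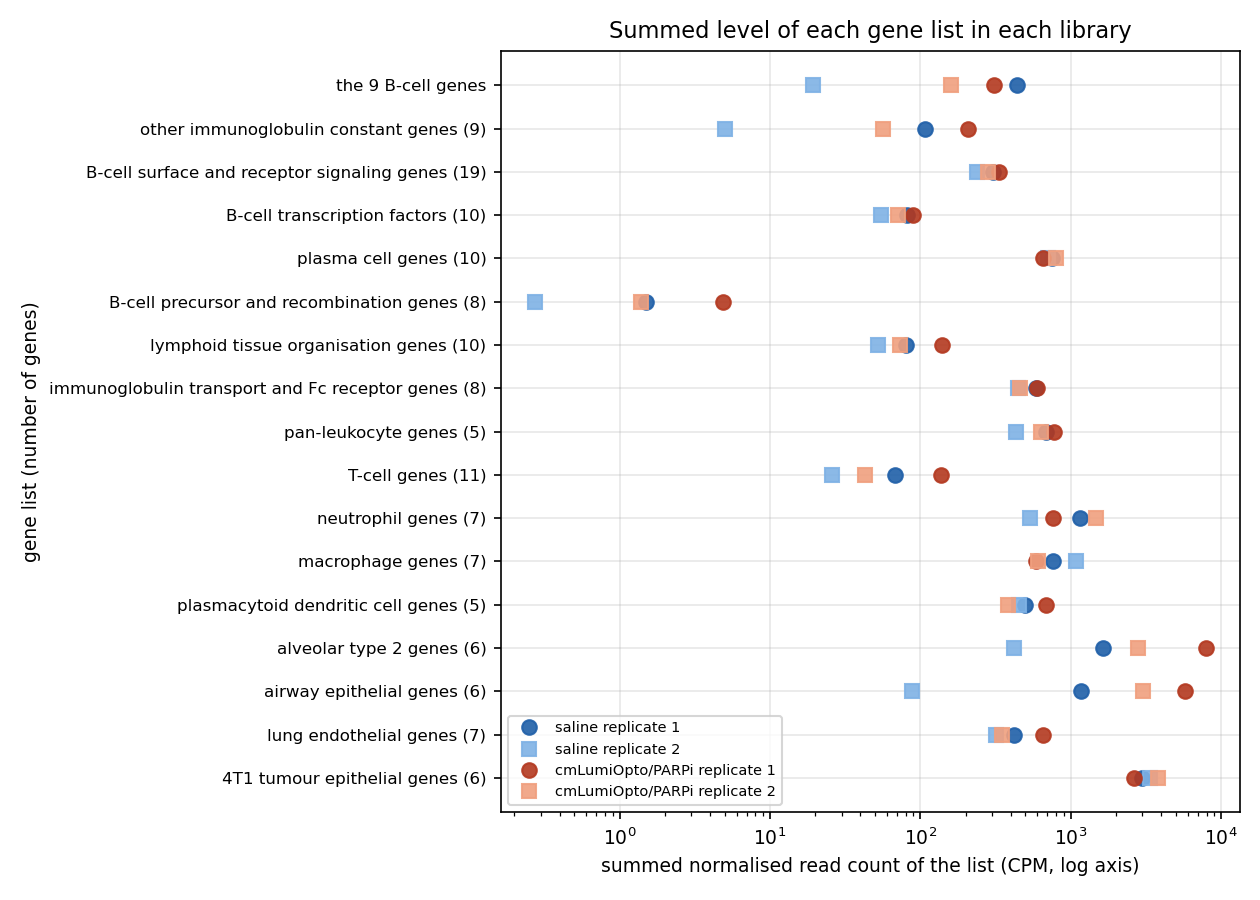
Summed CPM (log axis) of each gene list in each library, with the number of genes of the list in parentheses. The 9 B-cell genes run from 19.4 CPM in saline replicate 2 to 439.6 CPM in saline replicate 1. The 4T1 tumour epithelial genes, which lung epithelium can make too, stay between 2647 and 3806 CPM.

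Markers of other leukocytes were read in the same libraries. Of 11 T-cell genes tested, 11 had a log2 fold change above 0, against 7881 of all 15167 genes, and 0 had an unadjusted p under 0.05. Their summed levels were 68.3 and 25.8 CPM in the saline libraries and 137 and 42.9 CPM after cmLumiOpto/PARPi. Saline replicate 2 was lowest in 10 of the 11. Both treated libraries exceeded both saline libraries in 1 of the 11, against 27.4% of all genes. Against saline replicate 1 alone this held for 1 of the 11, or 9.09%, where all genes gave 37.0%. Pan-leukocyte genes summed to 688 and 434 CPM and to 769 and 637 CPM, with saline replicate 2 the lowest in 5 of 5. Genes of plasmacytoid dendritic cells, which share some B-cell genes, summed to 498 and 455 CPM and to 684 and 385 CPM, mostly from Bst2 and Tcf4, which many cells make. Of its 5 genes, 4 were lowest in saline replicate 2, and the median log2 fold change was 1.38. Siglech, Ccr9 and Klk1 were at 0 counts in saline replicate 2. Siglech had 1.00 CPM in saline replicate 1 and 3.45 and 1.14 CPM after cmLumiOpto/PARPi, and Ccr9 had 0.376 CPM against 1.15 and 0.903 CPM. Ccr9 passed the filter on low counts only through the treated libraries. Tcf4 went the other way, at 280 and 292 CPM in the saline libraries against 176.5 and 196 CPM, with both treated libraries lower. Its log2 fold change was -0.62 (adjusted p = 0.138 in the quasi-likelihood test). Macrophage genes summed to 764 and 1091 CPM in the saline libraries, and to 584 and 604 CPM after cmLumiOpto/PARPi. The high sum of saline replicate 2 came mainly from Mrc1 (396 CPM) and Chil3 (423 CPM), and 3 of the 7 macrophage genes were lowest in that library. Neutrophil genes summed to 1160 and 540 CPM and to 761 and 1463 CPM. The part of these cell types in the values of the 9 genes was not tested.

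The mean profile of the 9 genes, each centred on its own mean log2 CPM, was 0.67 and -2.06 in the saline libraries and 1.17 and 0.22 after cmLumiOpto/PARPi. Over these 4 libraries the 5 genes outside the lists with the nearest profiles (Euclidean distance) were Rgs18 (0.141), Btla (0.166), Tmem132c (0.175), Flvcr2 (0.202) and Slc9a7 (0.228). Btla encodes an inhibitory receptor of lymphocytes. It had 2.89 and 0.409 CPM in the saline libraries and 4.38 and 2.23 CPM after cmLumiOpto/PARPi, and overlapped. With 4 libraries the likeness is a description.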

How the data were processed

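The authors isolated poly-A RNA, sequenced it at Novogene on an Illumina HiSeq instrument and mapped the reads with HISAT2. They deposited raw read counts per gene for the 4 libraries, which are not normalized. The counting tool and the use of strand are not given in the sources used here. The methods name GRCm38 and the submitters' processing notes name mm39. Of 52073 genes found by identifier in GENCODE M21 (GRCm38), 2.76% had the same position, and 0 of the 9 genes did. Gene coordinates are therefore those of the deposited table, and sequences carry GRCm38 coordinates. Igkc, Cd22, Iglc1 and Ms4a1 each overlap a long non-coding RNA with at most 4 counts in a library.

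Counts were scaled with TMM factors to CPM and, with a prior count of 2, to log2 CPM. Genes kept by filterByExpr (minimum count 10) were tested between the groups with edgeR 4.0.16 in R 4.3.3 (glmQLFit and glmQLFTest, Benjamini-Hochberg over 15167 genes, threshold 0.05, two-sided). A standard error is the log2 fold change divided by the square root of F. Exact 95% intervals used scipy 1.17.1, and coding sequences were aligned with Biopython 1.88. DESeq2 1.42.0, edgeR's likelihood ratio test, the glmQLFit option legacy=FALSE, a replicate block, other normalizations, no filter and leaving out each library were alternatives. The fits were tested on simulated counts. Totals of 15263375 to 16755228 counts set the precision.

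The genes, the lists and the tests were chosen with earlier results of these data known. Named in full were the 9 genes and the other constant genes. From each other list the rule allowed up to 3 genes per direction with the smallest p, and defining genes at or near 0. It also named the 5 genes with the nearest profile and the leading segment of each chain. Igkv10-96, Igkv4-74, Ptprc, Coro1a, Syk, Lyn, Pax5, Cd83 and Scgb1a1 were added as leading segments, references or markers after their values were seen. RefSeq promoters (GRCm38.p6) were found for 3 of the 9 genes (Cd79a, Cd22 and Jchain). That of Jchain was not used, as its last bases were not in a GENCODE transcript. No column of per-sample values was left out.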

Additional observations from a re-analysis of the deposited data

How the results depend on the processing

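With edgeR's RLE and upper quartile normalization, library totals only, scaling without immunoglobulin genes, and legacy=FALSE, 0 genes of the table passed. DESeq2 called 1011 genes, the likelihood ratio test 865 and the fit without a filter on low counts 2000 (of 25435), of which 1 was among the 9, Ms4a1 (log2 fold change 2.89, adjusted p = 0.00809). The main test had 3221 genes at an unadjusted p under 0.05. Same-numbered libraries come from different mice, and their deviations correlated across genes (Spearman's rho 0.298, 2 pairs). With the replicate block 1822 genes passed, 752 higher and 1070 lower, 0 of them among the 9, and the log2 fold change of Igkc was 1.18 (adjusted p = 0.423). Of 81 log2 fold changes of the 9 genes under 9 other settings, 79 kept their direction and made no new call, 3 of them with no adjusted p in DESeq2. Without each library in turn, 0 to 31 genes of the table and 0 to 2 of the 9 passed (Ighm, 3.51, and Igkc, 3.89, without saline replicate 1), and 2 to 9 of the 9 did not overlap: 9 without saline replicate 1 (79.7% of all genes), 4 without saline replicate 2 (73.3%), 2 without cmLumiOpto/PARPi replicate 1 (74.1%) and 7 without cmLumiOpto/PARPi replicate 2 (81.7%), where 55.2% of all genes did not overlap with all 4 libraries. The log2 fold change ran from 0.50 to 2.63 for Cd79a, 1.11 to 1.98 for Cd79b, 1.94 to 7.81 for Ms4a1, -0.41 to 0.83 for Cd22, -0.34 to 3.51 for Ighm, 0.12 to 1.06 for Ighd, -1.13 to 3.89 for Igkc, 0.02 to 7.32 for Iglc1 and -1.29 to 5.11 for Jchain. The direction turned for Cd22 (-0.18), Ighm (-0.34) and Jchain (-0.76) without saline replicate 2, for Cd22 (-0.41) and Jchain (-1.29) without cmLumiOpto/PARPi replicate 1, and for Igkc without saline replicate 1 (3.89) or without cmLumiOpto/PARPi replicate 2 (0.15). Of the 4 genes that did not overlap without saline replicate 2, 2 were higher and 2 lower after cmLumiOpto/PARPi. A fit that leaves a group with 1 library takes its spread from the other group. With variable and joining genes counted too, the kappa share was 98.6% in saline replicate 1 and 94.8% in treated replicate 1. With at least 3 counts, 30, 15, 60 and 27 variable segments were counted in saline replicates 1 and 2 and treated replicates 1 and 2. The causes were not tested. Depth limits Ms4a1, Iglc1, Cd79a, Cd79b and Ighd, with 0 to 62 counts per library. The list counts against saline replicate 1 alone and the shares over all genes of groups that do not overlap were added after the data were seen.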

Other observations

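Genes that organise lymphoid tissue and genes that bind or carry antibody were read as well. Of 8 tested genes of lymphoid tissue organisation, 6 had a log2 fold change above 0 and 0 had an unadjusted p under 0.05 in edgeR's quasi-likelihood test. Ltb, which encodes the lymphotoxin beta chain, had 11.5 and 2.59 CPM in the saline libraries and 28.8 and 13.4 CPM after cmLumiOpto/PARPi (log2 fold change 1.58, adjusted p = 0.268). Ccr7, a homing receptor of lymphocytes and dendritic cells, had 3.58 and 1.09 CPM against 9.15 and 4.03 CPM (1.49, adjusted p = 0.269). In both genes the treated libraries lay above the saline libraries. Tnfsf13b, the B-cell survival factor BAFF, overlapped (1.08, adjusted p = 0.322), as did Cxcl13, the chemokine that draws B cells into follicles (-0.11, adjusted p = 0.945). The follicle receptor Cxcr5 had at most 0.662 CPM.

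Of 7 tested genes of antibody transport and Fc receptors, Pigr, which carries polymeric IgA and IgM across epithelium, had 3.45 and 0.750 CPM in the saline libraries and 18.6 and 11.9 CPM after cmLumiOpto/PARPi. Both treated libraries were higher (log2 fold change 2.85, standard error 0.67, adjusted p = 0.139). Airway epithelial cells make Pigr, and the airway epithelial genes summed to 1177 and 88.6 CPM in the saline libraries and to 5792 and 3024 CPM after cmLumiOpto/PARPi. The part of these cells in the values of Pigr was not tested. Fcgrt, the neonatal Fc receptor, was higher in both treated libraries (0.47, adjusted p = 0.264), and Fcgr4, an IgG receptor of myeloid cells, was lower in both (-0.73, adjusted p = 0.345).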
